A study of Homo sapiens with 8 samples.

Results

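DEAD-box and DEAH-box proteins are ATP-driven RNA helicases, named after a short amino acid motif that binds and hydrolyses ATP. The genes analysed here were those whose symbol begins with DDX or DHX followed by a digit, without DDX39A, DDX39B and DHX15, and 48 of the 12067 genes in the splicing tables met this rule, 34 of them DDX and 14 DHX genes. Most of them code for helicases that unwind RNA or pull proteins off it, and each step of spliceosome assembly and release has its own. Others work on ribosomal RNA in the nucleolus, carry mRNA through the nuclear pore, act in translation and decay, or sense viral RNA. Among the matches, DDX12P and DHX40P1 are pseudogenes, and DDX26B carries the name INTS6L in the newer annotation.

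U2OS is a human osteosarcoma cell line. The cells were transfected for 48 h with siRNA at 20 nM, either against EGFP, which serves as the control because the cells do not carry that gene, or with a single siRNA, #2, against CHERP, a protein that binds U2 snRNP proteins of the early spliceosome. Poly(A) RNA was sequenced from whole cells and from the cytoplasm, the supernatant of a detergent lysis, from 2 biological replicates of each condition, which makes 8 libraries. The comparison asks how the helicase transcripts are spliced, and how abundant they are, when CHERP is depleted. In bulk RNA, fewer cells and less RNA per cell cannot be told apart.

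rMATS, the program the authors used, sorts alternative splicing into 5 types: skipped exons (SE), retained introns (RI), mutually exclusive exons (MXE), and exons with a choice of 5′ site (A5SS) or of 3′ site (A3SS). For each event it counts inclusion reads and skipping reads. All 48 genes had events in whole cells, 631 events in all, and 39 genes had 192 events in the cytoplasm. The helicase events took 0.825% to 0.896% of the reads on events in a whole-cell library and 0.371% to 0.469% in a cytoplasmic library. The median helicase event had 171 reads per library in whole cells and 46.6 in the cytoplasm. CHERP itself, the check of the labels, had an abundance of 0.551 and 0.336 scaled reads per base in the whole-cell EGFP siRNA libraries and of 0.0123 and 0.0615 in the CHERP siRNA libraries, a log2 fold change of -3.46 ± 0.61 (SE, limma adjusted p = 0.0215). In the cytoplasm its values were 0.392 and 0.276 against 0.0368 and 0.0493, on too few reads to be tested.

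In whole cells, 7 of the 631 helicase events passed a quasi-binomial test of the reads at an FDR of 0.05, against 1.12% of all 89379 events. They lay in 5 genes. Retention of an intron of DDX47 and of DDX46 fell and that of a DDX17 intron rose, while exon 12 of DDX5 was skipped more often and a pair of overlapping exons of DDX50 was included less often. The DDX5 events share their skipping reads with each other, and so do the DDX50 events, so that the 7 calls describe 5 changes. By type they were 3 of 41 RI events (3.26% of all RI events passed), 3 of 414 SE events (0.893% of all) and 1 of 19 A5SS events (1.13% of all). None of the 47 A3SS events and none of the 110 MXE events passed, where 1.14% and 1.6% of all events did. Those are 0 calls, with 1 A3SS and 6 MXE events (2.13% and 5.45%, beside 6.08% and 9.51% of all) at an unadjusted p under 0.05. Limma on the log odds called 0 of all whole-cell events, so its 0 for these types adds nothing.

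The splice sites of these introns are given here because they are what a spliceosome has to recognise at each event. They were read from GRCh37, the assembly of the tables, on the strand of the gene. A 5′ site shows 3 exonic and 6 intronic bases and a 3′ site 20 intronic and 3 exonic bases, with the GT or AG at the intron end in capitals.

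DDX47 intron 7, 5′ site: aagGTaaaa
DDX47 intron 7, 3′ site: gttttgggtttgtaacttAGgat
DDX46 intron 17, 5′ site: gctGTgagt
DDX46 intron 17, 3′ site: tcgttttctttttttgaaAGgag
DDX17 intron 11, 5′ site: tagGTttgt
DDX17 intron 11, 3′ site: actcatcattgacgtggaAGatg
DDX5 intron 11, 5′ site: tagGTtagt
DDX5 intron 11, 3′ site: cacactgcaacaccttacAGatg
DDX5 intron 12, 5′ site: cagGTaagg
DDX5 intron 12, 3′ site: tgcaattgttttcttgacAGgtc
DDX50 long extra exon, 3′ site: aaaaaactttcggttttcAGagc
DDX50 short extra exon, 3′ site: gacctgtacttcccttatAGggt
DDX50 both extra exons, 5′ site: tggGTaggt

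Sites were scored as a sum of log odds over their bases, taken from 95806 reference introns around the SE exons of the whole-cell table. The median reference score was 8.29 for 5′ sites and 9.85 for 3′ sites. The 3′ site of DDX17 intron 11 scored -0.416, with 9 pyrimidines among its first 18 bases, and only 1.05% of the reference sites scored lower. DDX5 intron 11, at the matching place in the paralog, had a 3′ site score of 2.92 (percentile 4.7). The 5′ site of DDX46 intron 17 scored 4.63 (percentile 7.8) beside a 3′ site of 12.5 (percentile 75.8), whereas the DDX47 intron had 8.57 (percentile 55.5) and 6.45 (percentile 19.3). In DDX50, the 3′ site of the long extra exon scored 5.77 (percentile 15.2) and that of the short one 8.66 (percentile 37.7), below the 11.8 (percentile 70.1) of the 3′ site used when both are skipped. These scores describe the sites and were not tested against the splicing changes.

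DDX47, a nucleolar helicase of 18S ribosomal RNA processing, carried the strongest call. Its intron 7 (chr12:12976254-12976803, plus strand, 550 nt, 1-based) lies between coding exons 7 and 8 of 12 in the canonical transcript DDX47-202 and is retained in 2 annotated transcripts. The retention level, the share of transcripts with the intron after correction for length, was 0.0766 and 0.103 with EGFP siRNA against 0.0455 and 0.0413 with CHERP siRNA. Both CHERP siRNA libraries were below both control libraries, and the level fell from 0.0899 ± 0.0188 to 0.0434 ± 0.00296 (SD, n = 2, quasi-binomial FDR = 1.14e-05). The call held with each of the 4 libraries left out in turn, with FDR from 5.29e-07 to 0.0381. Reading on from exon 7, the first in-frame stop codon in the intron begins at its base 16. In the cytoplasm the levels were 0.0406 and 0.0421 against 0.0154 and 0.0171, on 13, 12, 4 and 4 inclusion reads, and this difference did not pass (FDR = 0.666). Nor did the siRNA by fraction interaction (FDR = 0.988).

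DDX46, the human Prp5, remodels U2 snRNP at the branch site. Its intron 17 (chr5:134147049-134147385, plus strand, 337 nt) was almost fully spliced in the control, with retention levels of 0.0147 and 0.0226, and more completely still with CHERP siRNA, at 0.00119 and 0.00335. The groups did not overlap (0.0187 ± 0.00557 against 0.00227 ± 0.00153, SD, n = 2, FDR = 0.0341). The call rested on 15 and 30 inclusion reads against 1 and 3. It was lost without the second EGFP siRNA library (FDR = 0.302), the first CHERP siRNA library (0.586) or the second (0.265). DDX46 abundance in whole cells was 24.3 and 27.4 against 18.8 and 19.7 scaled reads per base, a log2 difference of -0.42 ± 0.13 that did not pass (SE, limma adjusted p = 0.0807).

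DDX17 and DDX5 are close paralogs, also known as p72 and p68, that act in splicing, transcription and microRNA processing. Intron 11 of DDX17 (chr22:38884121-38888060, minus strand, 3940 nt) was widely retained in control cells, with levels of 0.332 and 0.343, and more so with CHERP siRNA, with levels of 0.413 and 0.473. The means were 0.338 ± 0.00753 and 0.443 ± 0.0425 (SD, n = 2, FDR = 0.0312). This intron also holds 2 annotated exons of other DDX17 transcripts, whose reads would count as retention. The call was lost without the first CHERP siRNA library (FDR = 0.129) or the second (0.739). An in-frame stop follows at base 12 of the intron. The matching intron 11 of DDX5 (chr17:62496892-62498127, minus strand, 1236 nt) was retained at 0.212 and 0.221 in the control and at 0.217 and 0.214 with CHERP siRNA, so the groups overlapped (FDR = 0.961). The stretch of DDX5 intron 11 and exon 12 holds 3 further annotated exons of other transcripts, so these levels can include their reads too. Whether the introns of the paralogs responded differently was not tested.

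Exon 12 of DDX5 (chr17:62496667-62496891, 225 nt) is a coding exon whose length is a multiple of 3, and 13 annotated transcripts hold it. Reads that joined exon 11 to exon 13 numbered 11 and 7 with EGFP siRNA against 36 and 57 with CHERP siRNA in whole cells. These were 0.272% (95% exact interval 0.136 to 0.487) and 0.141% (0.0569 to 0.291) of the event's reads in the control and 0.525% (0.368 to 0.726) and 0.845% (0.64 to 1.09) after depletion, where the intervals cover counting error only. Skipping was thus rare in every library, and both CHERP siRNA libraries were above both controls. After length correction, inclusion fell from 0.995 ± 0.00236 to 0.983 ± 0.00567 (SD, n = 2, FDR = 0.0411). The A5SS call of DDX5 sets the same exon junction against a long form made of exon 11, intron 11 and exon 12 (FDR = 0.0196). Reads on the other annotated exons inside this stretch would count as the long form.

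In the cytoplasm the same DDX5 junction had 0 of 472 and 0 of 434 reads in the control, which allow shares of up to 0.636% and 0.691% by a limit of 3 counts and of up to 0.778% and 0.846% by the exact interval, and 8 of 812 and 11 of 656 reads with CHERP siRNA, or 0.985% (0.426 to 1.93) and 1.68% (0.84 to 2.98). The direction was that of whole cells. The cytoplasmic events did not pass (FDR = 0.244 for SE and 0.106 for A5SS), and neither did the A5SS interaction with fraction (FDR = 0.931). With its own spread between libraries in place of the trend, the whole-cell FDR of the exon was 0.282, and it was 0.909, 0.102 and 0.951 without the second EGFP, the first CHERP and the second CHERP siRNA library. The A5SS event was likewise lost in these settings (FDR = 0.286, 0.596, 0.121 and 0.908).

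DDX50 and DDX21 are nucleolar paralogs that lie next to each other on chromosome 10. Between exons 1 and 2 of DDX50, the tables hold an extra exon with a choice of 3′ sites, a long form of 112 nt (chr10:70665982-70666093, plus strand) and a short form of 54 nt (chr10:70666040-70666093). The canonical transcript DDX50-201 skips both, and each is annotated in 1 transcript only, of the nonsense-mediated decay class. The stretch around the first in-frame stop is shown for each form, because it is what ends the reading frame there, with the stop codon in capitals. Read on from exon 1, it lies at base 67 of the long form and at base 31 of the short form.

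DDX50 long extra exon: atagggttgttaTGAagatttaaacaa
DDX50 short extra exon: aacaagataagcTGAaaacacattaca

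The long form had inclusion levels of 0.181 and 0.2 in the control and of 0.0679 and 0.082 with CHERP siRNA, and the short form had 0.123 and 0.174 against 0.0488 and 0.0291. Neither pair of groups overlapped. Inclusion fell from 0.19 ± 0.0139 to 0.0749 ± 0.01 for the long form (SD, n = 2, FDR = 0.0411) and from 0.148 ± 0.0362 to 0.039 ± 0.014 for the short form (FDR = 0.0415). Each is set against the same 125, 128, 170 and 170 skipping reads. With each of the 4 libraries left out in turn, the call of the long form was lost every time (FDR from 0.0686 to 0.809). That of the short form held without the first EGFP siRNA library (FDR = 0.0260) and was lost in the other cases (FDR from 0.321 to 0.914). In the cytoplasm the long form had 10 and 8 inclusion reads in the control against 3 and 1 (FDR = 0.762), and the short form 4 and 2 against 2 and 2. DDX50 abundance was 18.4 and 19.6 against 15.9 and 16 in whole cells (log2 difference -0.25 ± 0.12, SE, limma adjusted p = 0.193).

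**Figure D1:**
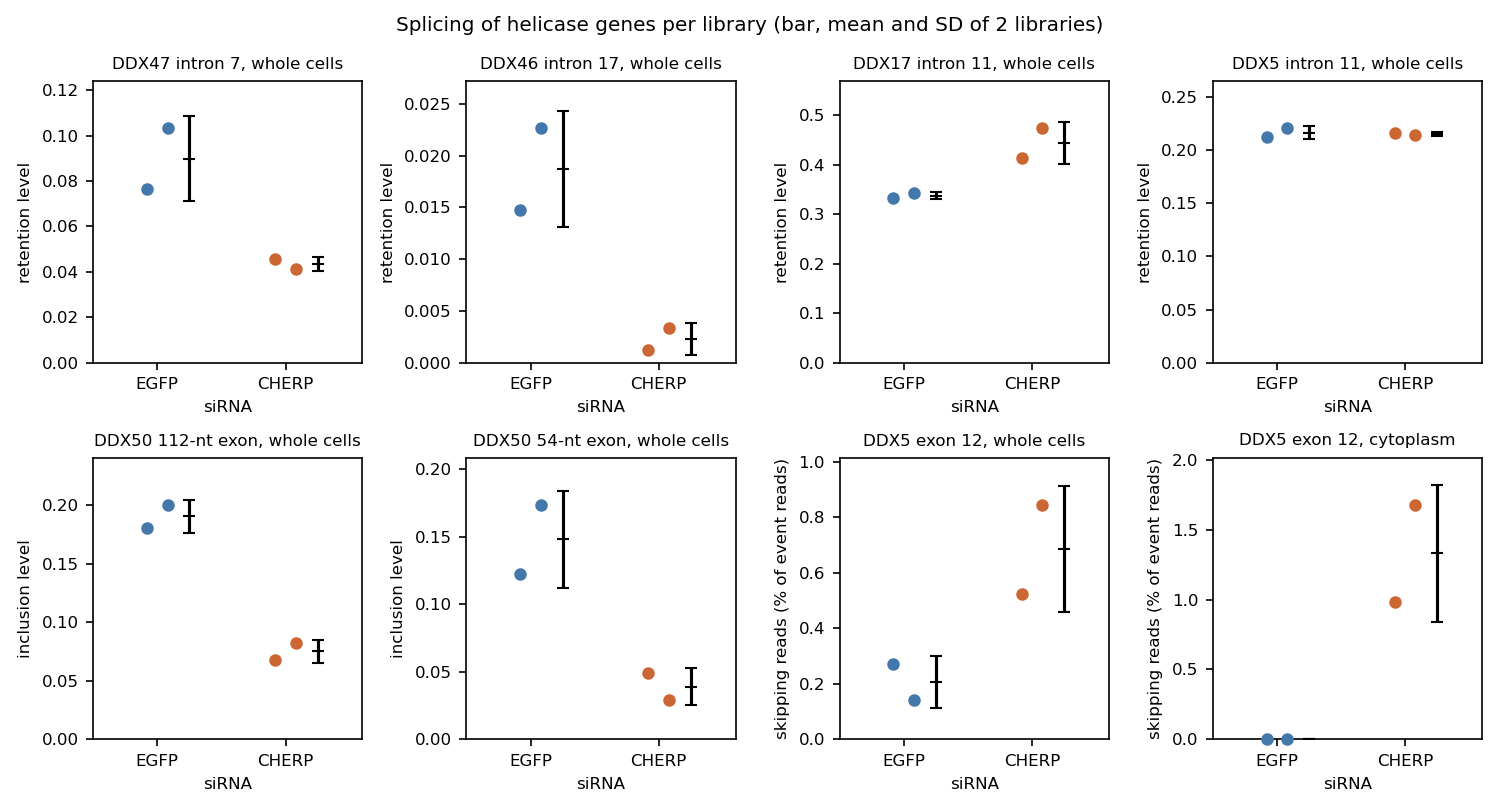
Retention level of 4 introns, inclusion level of the DDX50 extra exons and share of skipping reads at DDX5 exon 12 (vertical axes, each from 0) by siRNA (horizontal axis). Blue and orange points are the EGFP and CHERP siRNA libraries and black bars the mean and SD of 2 libraries. The groups stand apart in every panel except DDX5 intron 11, where all 4 libraries lie between 0.212 and 0.221.

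Of the other helicase events, DDX56 RI was the nearest outside the threshold (FDR = 0.194) and the DDX50 short exon the nearest inside (0.0415). At an unadjusted p under 0.05 there were 30 of 631 whole-cell events, 15 higher and 15 lower with CHERP siRNA, and 7 of 192 in the cytoplasm. These were 4.75% and 3.65% of the helicase events, beside 6.51% and 4.24% of all events. By type in whole cells, the helicase share was 3.38% for SE (5.54% of all), 14.6% for RI (11.3%), 15.8% for A5SS (8.11%), 2.13% for A3SS (6.08%) and 5.45% for MXE (9.51%). In the cytoplasm it was 2.34% for SE (3.41% of all), 5% for RI (8.49%), 27.3% for A5SS (4.8%), where 3 of 11 events stand behind it, and 0% for A3SS (4.15%) and MXE (8.7%). Of the 41 helicase RI events, some of which overlap, 23 had a control level under 0.1. The share of all RI events under this level was not computed. The median control level of the 41 events was 0.0679, beside 0.127 for all RI events. Median control inclusion was 0.995 for helicase SE events and 0.981 for all. Of the 312 distinct helicase exons, 122 (39.1%) had a length that is a multiple of 3, beside 40.5% of all exons in the table. Limma on the log odds called 0 of all cytoplasmic events, so its 0 for the helicases adds nothing. No helicase event passed the quasi-binomial test in the cytoplasm, where 0.413% of all 43559 events did. That was 0 of 128 SE events (0.254% of all SE events passed), 0 of 20 RI events (2.12%), 0 of 11 A5SS events (0.617%), 0 of 19 A3SS events (0.372%) and 0 of 14 MXE events (0.863%).

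For abundance, the reads per base of effective length were summed over the SE, A5SS and A3SS events of each gene and scaled between libraries. It was tested for 47 of the 48 genes in whole cells, all but DDX19B, and for 35 of 39 in the cytoplasm. In whole cells 2 helicase genes rose and 5 fell at an adjusted p of 0.05, where 13.3% of the 9660 genes tested rose and 13.7% fell. The cytoplasm gave 4 that rose and 10 that fell, where 19.1% of 7293 genes rose and 19.9% fell. The genes called were 14.9% of the helicases tested in whole cells and 40% in the cytoplasm, beside 27% and 39% of all genes. The median log2 fold change of the helicases was -0.18 in whole cells and -0.30 in the cytoplasm, beside 0.0055 and -0.0082 for all genes. The libraries of the siRNAs did not overlap for 35 of the 47 helicases in whole cells and 24 of the 35 in the cytoplasm, beside 70.3% and 75.1% of all genes. Scaling by the total instead moved the median of all genes in the cytoplasm to -0.11 and gave 3 helicases that rose and 15 that fell. All 7 genes called in whole cells were also called, with the same direction, in the cytoplasm, whose libraries are separate but may stem from the same cultures.

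**Figure D2:**
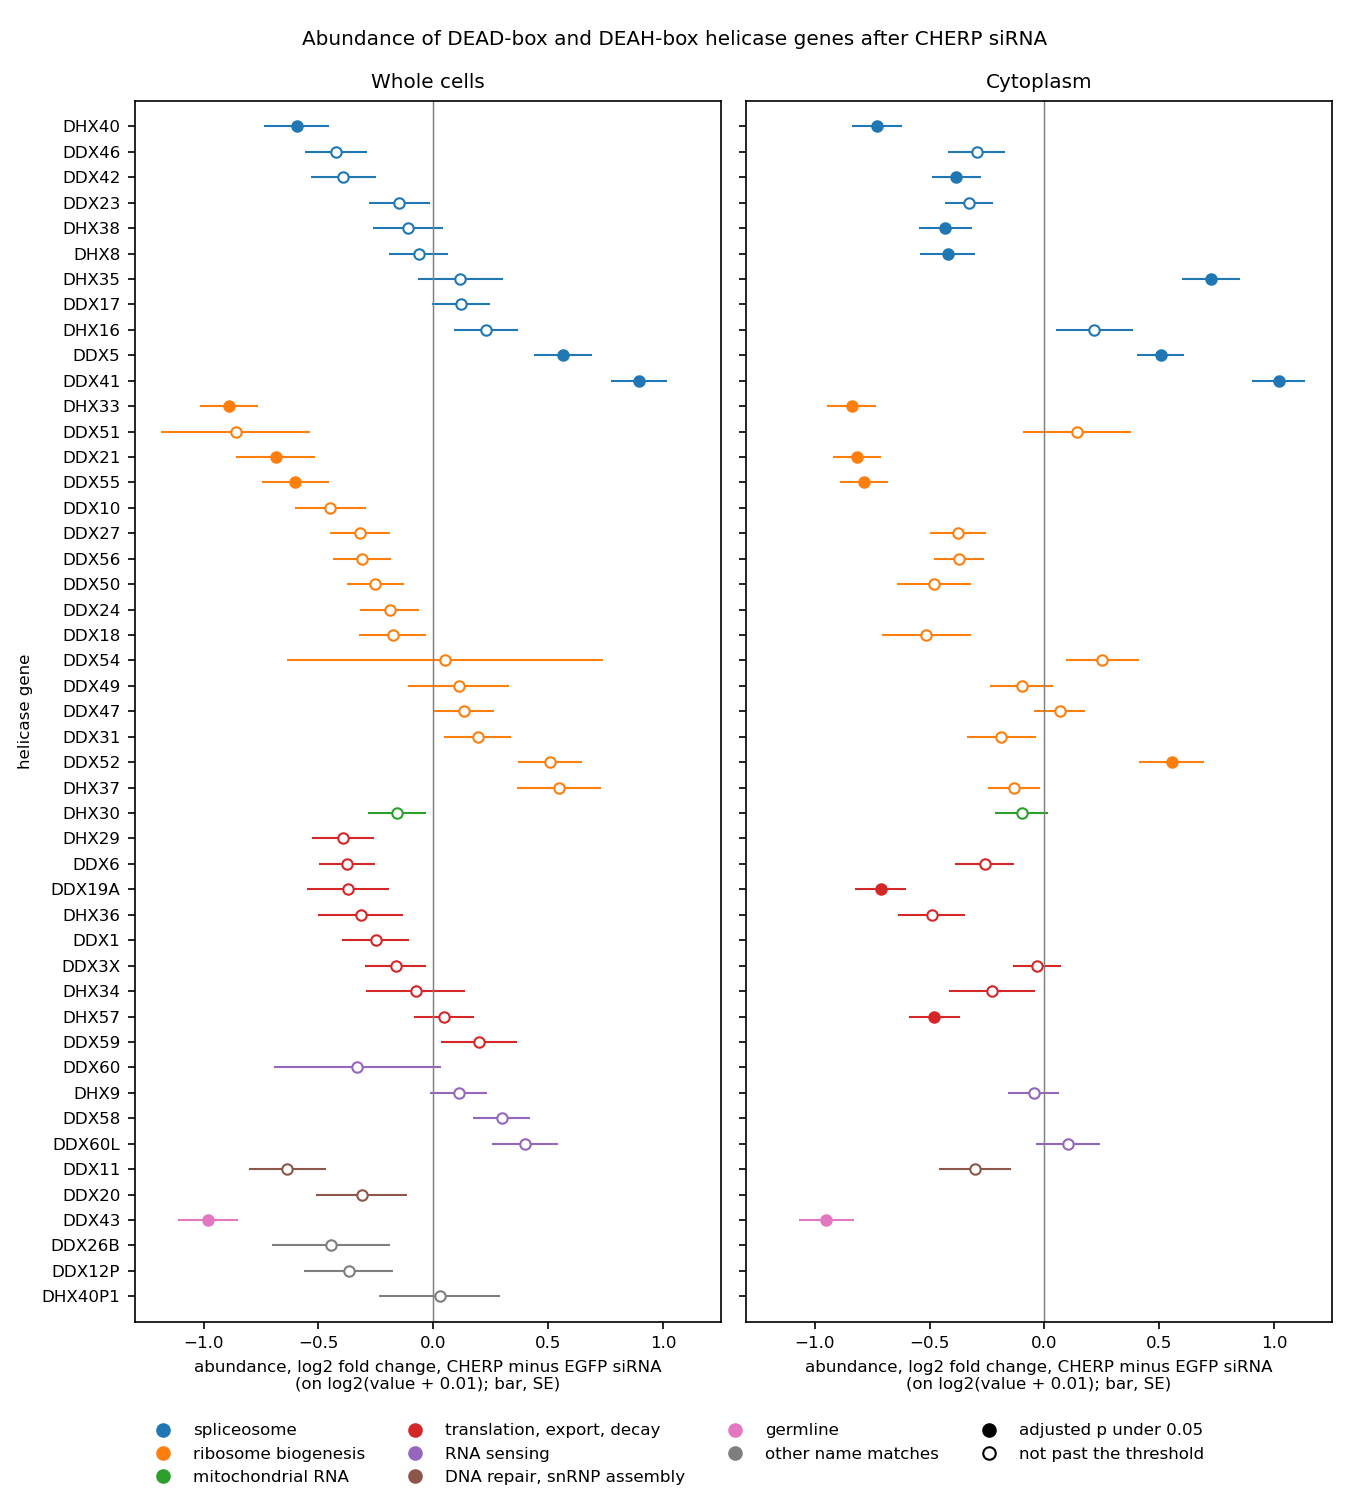
log2 fold change of abundance with CHERP siRNA (horizontal axis, on the log2(value + 0.01) scale) for each helicase gene (vertical axis) in whole cells and the cytoplasm, coloured by role. Points are limma estimates, bars their SE, and filled points passed an adjusted p of 0.05, from DDX43 at -0.98 to DDX41 at 0.89 in whole cells and 1.02 in the cytoplasm. Genes with no point in the right panel were not tested there.

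Among the spliceosome helicases, 2 of 11 rose and 1 fell in whole cells, and 3 of 10 rose and 4 fell in the cytoplasm. The genes called were 27.3% and 70% of the group, beside 27% and 39% of all genes tested. DDX41, a helicase of the late spliceosome that is also known as a DNA sensor, had 2.87 and 2.80 scaled reads per base in the whole-cell control and 5.28 and 5.29 with CHERP siRNA. It was the largest increase among the helicases, a log2 fold change of 0.89 ± 0.12 (SE, limma adjusted p = 0.0130), and of 1.02 ± 0.12 in the cytoplasm (adjusted p = 0.00621), where its values were 2.31 and 2.19 against 4.81 and 4.33. No library of one siRNA overlapped with those of the other. From SE events alone the whole-cell change was 0.60 and did not pass (adjusted p = 0.0563).

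DDX5 was the most abundant helicase by this measure in whole cells and the number 4 in the cytoplasm, with whole-cell values of 126.6 and 135.9 in the control and 190.0 and 198.0 with CHERP siRNA. Its log2 fold change was 0.56 ± 0.13 in whole cells (SE, adjusted p = 0.0366). In the cytoplasm it went from 9.24 and 9.09 to 13.1 and 12.9, a change of 0.51 ± 0.10 (adjusted p = 0.0214). With 1 library left out, the cytoplasmic change of DDX5 stayed between 0.49 and 0.52, but the call was lost whichever library it was. Skipping of its exon 12 took at most 0.845% of the event reads in these whole-cell libraries. DDX17 had 8.63 and 9.25 against 9.99 and 9.44 in whole cells (0.12 ± 0.13, SE, adjusted p = 0.512).

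DHX40, a helicase found in spliceosomes, went the other way, from 29.5 and 32.1 to 19.1 and 21.8 (log2 fold change -0.59 ± 0.14, SE, adjusted p = 0.0423) and in the cytoplasm from 4.05 and 3.93 to 2.502 and 2.315 (-0.73 ± 0.11, adjusted p = 0.0110). Its pseudogene DHX40P1, which can share reads with it, had 41.3 reads per library and a change of 0.028 ± 0.26. DHX35, of the catalytic spliceosome, rose in the cytoplasm, from 0.229 and 0.202 to 0.381 and 0.344 (0.73 ± 0.13, adjusted p = 0.0151) on 31.5 reads per library, whereas in whole cells its 2.52 and 1.91 overlapped with 2.26 and 2.51. DHX38, the human Prp16 of the second splicing step, fell in the cytoplasm by 0.43 on the log2 scale (adjusted p = 0.0432). The median log2 fold change of the group was -0.063 in whole cells and -0.31 in the cytoplasm.

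The ribosome biogenesis helicases were the largest group, with 16 genes tested in whole cells, of which 3 fell and none rose, and 14 in the cytoplasm, of which 3 fell and 1 rose. Those called were 18.8% and 28.6% of the group, below the 27% and 39% of all genes tested. The median log2 fold changes were -0.22 and -0.28. DDX21, a nucleolar helicase that couples ribosomal RNA transcription and processing, had the second highest sum of the helicases in the whole-cell control. In the cytoplasmic control it had the highest, 17.7 over 9 listed events, before DDX27 with 15.9 over 6 events. The order per event was not computed for the cytoplasm. In whole cells it had 88.0 and 106.5 scaled reads per base with EGFP siRNA against 55.0 and 65.8 after CHERP siRNA, without overlap (log2 fold change -0.69 ± 0.17, SE, adjusted p = 0.0475). In the cytoplasm it fell from 17.4 and 17.9 to 9.86 and 10.2 (-0.82 ± 0.10, adjusted p = 0.00783).

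DHX33, which acts in ribosomal RNA transcription, fell in both fractions. Its whole-cell values were 2.26 and 2.40 against 1.26 and 1.24 (-0.89 ± 0.12, SE, adjusted p = 0.0140) and its cytoplasmic values 1.11 and 1.11 against 0.636 and 0.596 in the CHERP siRNA libraries (-0.84 ± 0.11, adjusted p = 0.00774). DDX55, a helicase of the large ribosomal subunit, had 8.999 and 8.804 against 5.38 and 6.40 in whole cells (-0.60 ± 0.15, adjusted p = 0.0444) and 2.06 and 2.16 against 1.245 and 1.197 in the cytoplasm (-0.78 ± 0.11, adjusted p = 0.00898). All 4 libraries of each gene kept the groups apart in each fraction.

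DDX52, which acts on the small subunit, was the member of this group that rose, in the cytoplasm from 0.567 and 0.609 to 0.787 and 0.957 (0.55 ± 0.14, SE, adjusted p = 0.0375). In whole cells the difference was 0.51 ± 0.14 and just missed the threshold (adjusted p = 0.0567), with 8.39 and 9.66 against 12.6 and 13.0. DDX47 had 45.4 and 48.6 against 49.8 and 53.4 in whole cells (0.13 ± 0.13, adjusted p = 0.471).

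**Figure D3:**
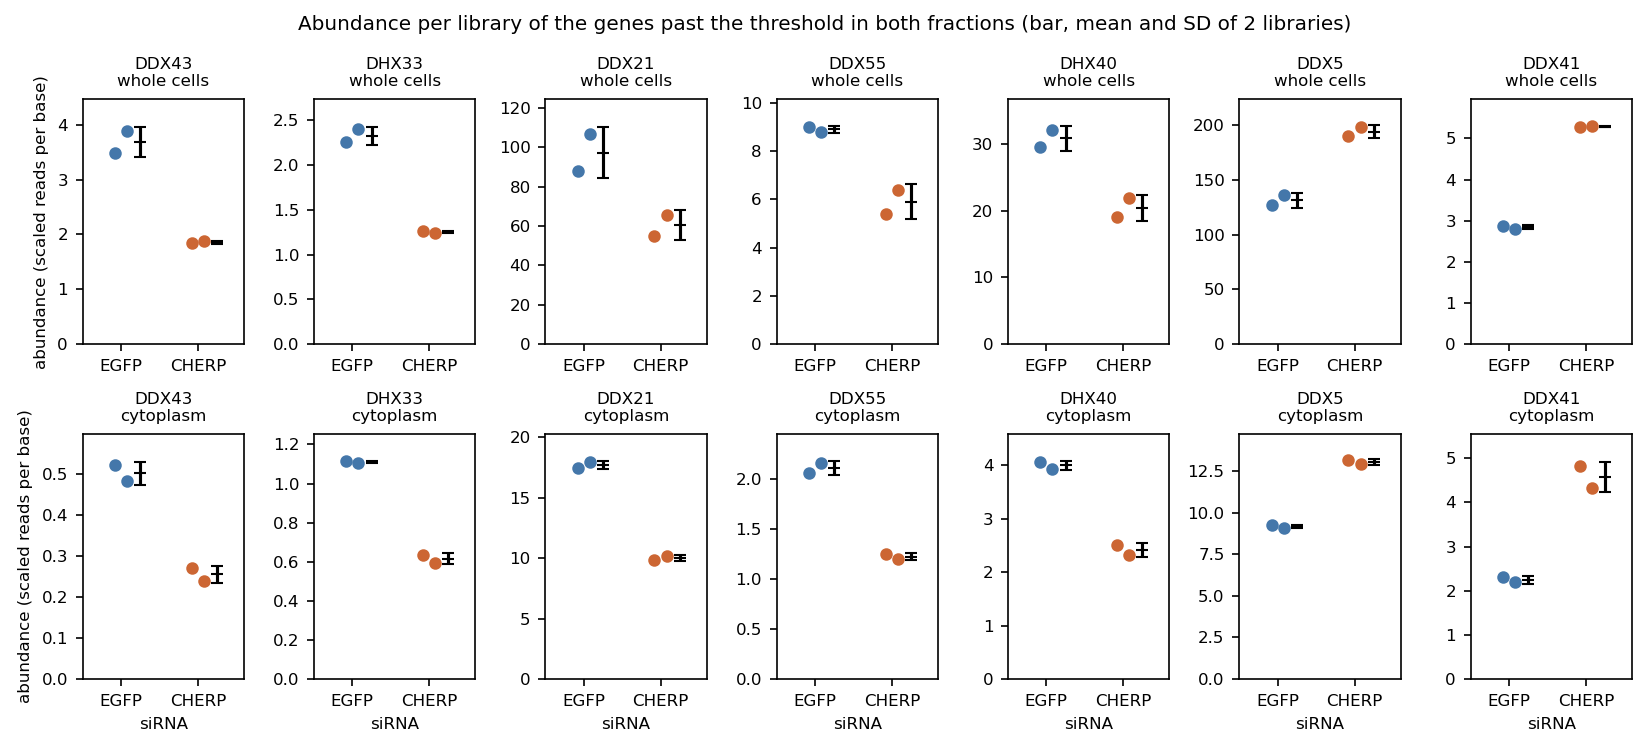
Abundance in scaled reads per base (vertical axes, each from 0) by siRNA (horizontal axis) for the 7 helicase genes past the threshold in both fractions, whole cells above and cytoplasm below. Blue and orange points are the EGFP and CHERP siRNA libraries and black bars the mean and SD of 2 libraries, which stand apart in all 14 panels.

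In the group of translation, export and decay, 0 of 9 genes passed in whole cells and 2 of 6 (33.3%) fell in the cytoplasm. Of all genes tested, 27% passed in whole cells and 39% in the cytoplasm. DDX19A, which releases mRNPs at the nuclear pore, fell there from 2.62 and 2.85 to 1.61 and 1.72 (-0.71 ± 0.11, SE, adjusted p = 0.0122). Its whole-cell values of 12.4 and 15.8 against 10.1 and 11.5 did not pass (-0.37 ± 0.18, adjusted p = 0.185). Its near copy DDX19B had 16.3 reads per library in whole cells, and reads may be split between them. DHX57, a helicase of little known function, fell in the cytoplasm from 0.502 and 0.553 to 0.377 and 0.373 (-0.48 ± 0.11, adjusted p = 0.0301), with 0.047 ± 0.13 in whole cells. DDX3X, a translation factor and next in whole-cell abundance after DDX21, had 61.8 and 63.4 against 52.7 and 59.3 in whole cells (-0.16 ± 0.13, adjusted p = 0.398).

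Of the RNA sensing genes, 0 of 4 passed in whole cells (27% of all genes did) and 0 of 2 in the cytoplasm (39% did). They include DDX58, which codes for RIG-I, with 2.81 and 2.94 against 3.50 and 3.57 in whole cells (0.30 ± 0.12, SE, adjusted p = 0.139). DHX30, the one gene of the mitochondrial group in the tables, did not pass in either fraction, nor did DDX11, of DNA repair. DDX20, of snRNP assembly, did not pass in whole cells and had no events in the cytoplasm. DDX11 came close in whole cells, with 8.80 and 7.19 against 5.51 and 4.76 (-0.64 ± 0.17, adjusted p = 0.0541), and shares sequence with its pseudogene DDX12P. DDX43, a cancer and testis antigen and the only germline helicase with events, had the lowest log2 fold change of the helicases tested in each fraction. It went from 3.49 and 3.88 to 1.84 and 1.87 in whole cells (-0.98 ± 0.13, adjusted p = 0.0128) and from 0.522 and 0.483 to 0.271 and 0.240 in the cytoplasm (-0.95 ± 0.12, adjusted p = 0.00790). DHX33 was close, at -0.89 ± 0.12 and -0.84 ± 0.11, and the order of these genes was not tested.

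For comparison, related RNA helicases with other names gave 2 of 15 that rose in whole cells, HELZ (0.81 ± 0.15, SE, adjusted p = 0.0243) and DICER1 (0.60 ± 0.15, adjusted p = 0.0484), and none that fell. In the cytoplasm 1 of 14 fell, MOV10 (-0.87 ± 0.13, adjusted p = 0.0114). Beside 27% and 39% of all genes, those called were 13.3% and 7.14% of these related helicases. Their median log2 fold changes were 0.14 and -0.027. EIF4A1, the founding member of the DEAD-box family, had 296.0 and 306.8 against 365.1 and 348.8 scaled reads per base in whole cells (0.24 ± 0.12, adjusted p = 0.203).

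Across the helicases, control abundance in whole cells spanned from 131.2 ± 6.59 for DDX5 to 0.121 ± 0.0533 for DDX60 (SD, n = 2). DDX21 (97.2 ± 13.1), DDX3X (62.6 ± 1.12), DDX47 (47.0 ± 2.24) and DDX1 (39.7 ± 4.36) followed DDX5, at percentiles from 95.7 to 98.9 of all genes tested. The range of the DDX1 libraries, 36.6 and 42.8, overlapped with that of DHX9 next to it, 37.5 and 39.4, while the ranges of the first 5 did not overlap among themselves. At the low end, DDX54 (0.338 ± 0.292), DDX12P (0.301 ± 0.0467), DDX51 (0.181 ± 0.0795), DHX40P1 (0.136 ± 0.0496) and DDX60 overlapped with their neighbours in this order, except DDX12P with DDX51. A gene with more listed events has a higher sum. Per event, DDX5 stayed first at 6.56, DDX3X came next at 3.48 before DDX21 at 3.35, and DDX47 moved to place 8. DDX54 had only 1 listed event in whole cells and moved from place 43 by the sum to place 32 per event. In the cytoplasm, with 3 listed events, its control value was 1.55, at percentile 61.6 of all genes tested. Its low place in whole cells thus depends on the events listed.

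**Figure D4:**
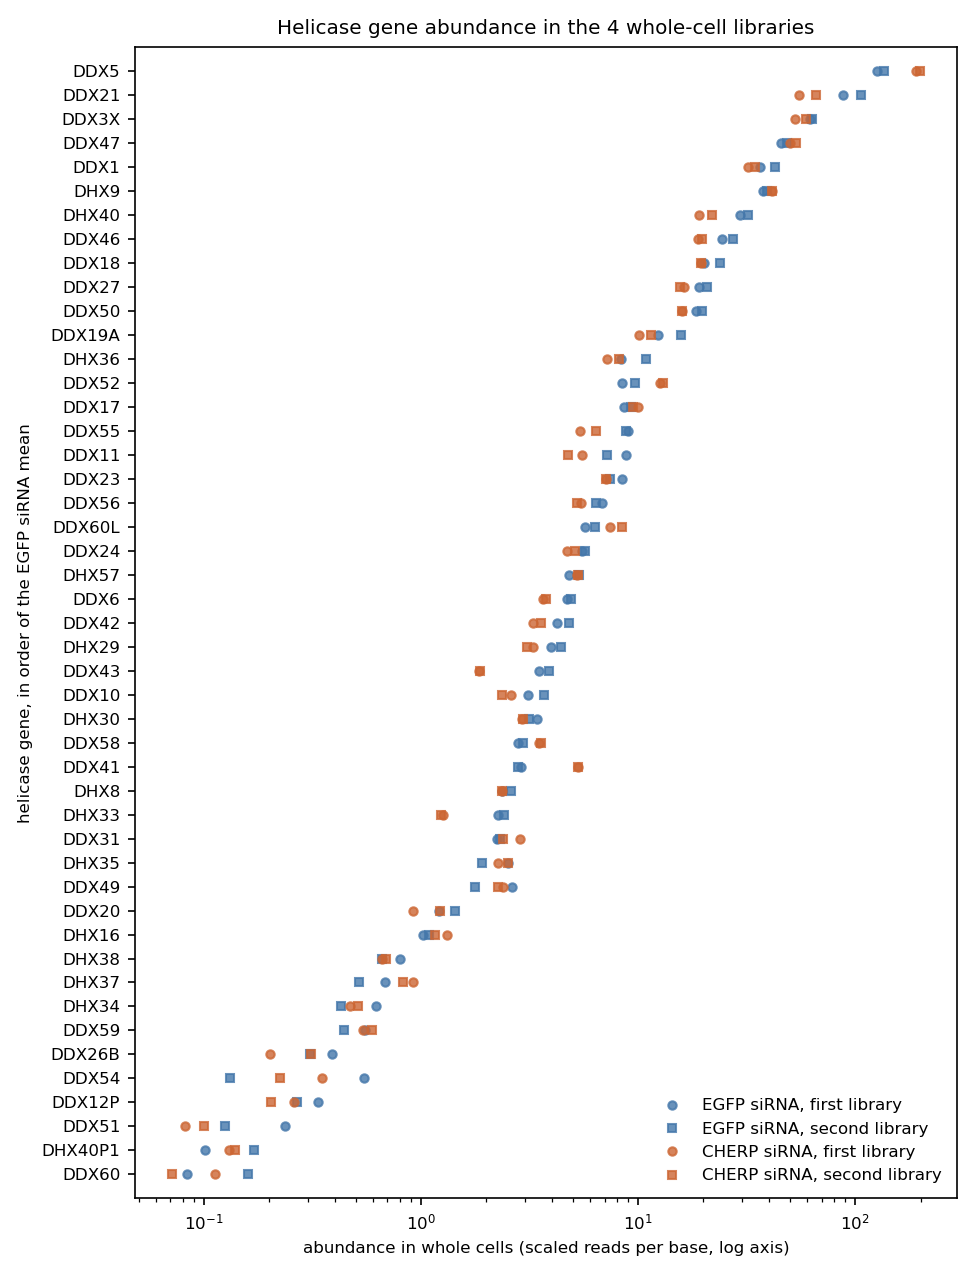
Abundance in scaled reads per base (horizontal log axis) of the 47 helicase genes tested in whole cells (vertical axis, ordered by the EGFP siRNA mean). Each point is 1 library, with blue for EGFP and orange for CHERP siRNA and circles and squares for the first and second library. The control means run from 0.121 for DDX60 to 131.2 for DDX5, and the orange points of DDX5 and DDX41 lie to the right and those of DDX21, DDX43 and DHX33 to the left of the blue ones.

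The siRNA by fraction interaction in abundance was tested for 35 helicase genes with limma and 0 passed (0% of all 7059 genes did), with 3 helicases at an unadjusted p under 0.05. These were DHX57 (cytoplasm minus whole -0.53 ± 0.16, SE, adjusted p = 0.748), DHX37 (-0.68 ± 0.22, adjusted p = 0.762) and DHX35 (0.61 ± 0.23, adjusted p = 0.824), named after their values were seen. None of the shared helicase events passed either (0.0327% of 33604 events did), with 5 at an unadjusted p under 0.05. The shares of all genes and events at this unadjusted cut were not computed, so these counts say nothing particular to the helicases.

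The authors' own expression table covers the cytoplasm and lists 6757 genes with the mean of each of 2 conditions, which its header does not name. CHERP, the target of the siRNA, had 209.03 in the first and 1685.47 in the second, which points to the first as the CHERP siRNA condition. The length of the list is close to the number of changes the paper called at an FDR under 0.05. It is thus probably a selection of called genes. Of the 48 helicases, 19 were listed, 8 higher and 11 lower in the first condition. The matching shares over all genes were not computed. For the cytoplasm, the paper reports more increased than decreased transcripts after CHERP depletion. The authors' means were 2108 and 962 for DDX41, 10563.5 and 6618.7 for DDX5, 1082 and 2040 for DHX33, 5110 and 7956 for DDX21 and 169 and 304 for DDX43. DDX19A, DHX40 and DDX55 were lower in the first condition too. DHX37 (1994.65 and 1715.23) and DHX9 (4140.96 and 3754.69) were higher in it. Their cytoplasmic log2 fold changes from the summed event reads were -0.13 and -0.047, and neither passed. DHX57, DHX8 and DDX42, called in the cytoplasm from those reads, were not listed. No SD can be given for these pooled means.

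Without one CHERP siRNA library, no helicase abundance call in whole cells was left, whichever library it was, and the calls over all genes went from 2611 to 562 or 543. Without the first or the second EGFP siRNA library 5 and 6 helicases passed, and 4 of the 7 calls were among them each time. In the cytoplasm 7 and 6 of the 14 calls held without the first and second EGFP siRNA library, and 7 and 8 without the first and second CHERP siRNA library, where in the last case 10 helicases passed in all. DDX43, DHX33, DDX21, DDX55 and DDX41 passed in all 4 of these cytoplasmic fits.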

How the data were processed

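U2OS RNA from whole cells and cytoplasm was sequenced after EGFP or CHERP siRNA, with 2 libraries each, on TruSeq stranded libraries. Per the labels, the authors mapped reads to hg19 with STAR 2.5.2b and used RSEM 1.2.25. The version of rMATS is not given in the sources used here. The 10 deposited rMATS tables give inclusion and skipping reads per library, without normalization, with the effective length of each form. The first and second library are named by their place in a cell. Their p-values, FDR and inclusion differences were not used, nor were the 20 columns of inclusion levels per library. The deposited expression table gives the authors' mean of normalized counts per condition and the authors' fold ratios and posterior probabilities, which were not used.

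A quasi-binomial model was fitted to all events of a type and fraction, with the Pearson dispersion moderated by limma 3.58.1 in R 4.3.3 (trend on mean reads, floor 1). The prior degrees of freedom were infinite, so an event's own spread had no weight. Benjamini-Hochberg adjustment was within type and fraction, over all events. Levels correct reads for effective length. Abundance was tested with limma on log2(value + 0.01) after median-ratio scaling, for genes that averaged 20 or more reads per library. Reads on several events count at each: 29409956 to 35664568 per whole-cell library and 5370756 to 6580099 per cytoplasmic library. Fits were tested on simulated data. Sequences come from GRCh37, with samtools 1.23.1, and gene parts from GENCODE 44 lifted to it.

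The genes, role lists and tests were chosen with earlier results of these data known. Named were events with an FDR under 0.05, genes with an adjusted p under 0.05 (the 12 largest changes per fraction), the 5 most and 5 least abundant helicases, and related helicases from a list. Alternatives were another test, read minimum, dispersion, adjustment, pseudocount and scaling, and leaving out each library.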

Additional observations from a re-analysis of the deposited data

How the results depend on the processing

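No paired analysis was possible because the reads of both libraries of a siRNA stand in 1 cell without a replicate number. Limma on the log odds called 0 of all events in either fraction, not of the helicases alone. The 7 whole-cell event calls became 0 with limma on the log odds and 2 (DDX47 and DDX17) with an event's own dispersion where larger, and 1 to 7 with 1 library left out. The 0 cytoplasmic calls became 3, of DDX5 and DDX27, when the dispersion came from events whose rarer form had 10 or more reads, and stayed 0 to 0 without 1 library. The 7 whole-cell abundance calls became 3 without a read minimum and 16 with an intensity trend, and 0 to 6 without 1 library. The 14 cytoplasmic calls became 8 without a read minimum, and 6 to 10 without 1 library. Other settings kept these counts within 1.5 times, and the counts of interactions stayed at 0. None of the values that changed sign passed, with or without the change. They were DDX54 in whole cells with a pseudocount of 0.1 (log2 -0.015), DHX40P1 in whole cells (-0.0094) and DDX47 in the cytoplasm (-0.033) scaled by the total, and, without 1 library, the cytoplasmic DDX50 short exon (inclusion difference -0.0155 to 0.00452) and log2 changes in whole cells of DHX40P1 (-0.34 to 0.38), DHX57 (-0.039 to 0.13), DHX38 (-0.24 to 0.020), DHX35 (-0.076 to 0.31), DHX8 (-0.14 to 0.0073), DDX60 (-0.77 to 0.099) and DDX54 (-0.93 to 1.03) and in the cytoplasm of DDX51 (-0.17 to 0.45) and DDX3X (-0.059 to 0.0036). The cause of these shifts was not tested. In the abundance fits, 3 libraries leave 1 residual degree of freedom. With 2 libraries per group, abundance p-values rest on the spread between 2 cultures, moderated over genes. Event p-values rest on counting error and a dispersion taken from the trend over all events. Of the helicase events, 40 of the 631 in whole cells and 23 of the 192 in the cytoplasm had fewer than 10 reads per library.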

Other observations

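An exon of DDX27, a helicase of the large ribosomal subunit, was noticed after its values were seen. It lies at chr20:47847560-47847652. Its inclusion level was 0.114 and 0.128 with EGFP siRNA against 0.0677 and 0.0565 with CHERP siRNA in whole cells, and 0.174 and 0.164 against 0.0757 and 0.0885 in the cytoplasm. The groups did not overlap in either fraction, and neither difference passed the adjustment (quasi-binomial FDR = 0.437 and FDR = 0.535). In DDX42, a helicase that binds the SF3B part of U2 snRNP and whose exon was likewise chosen after its values were seen, higher inclusion levels were measured for an exon of 37 nt (chr17:61876949-61876985) in both fractions, at 0.862 and 0.680 against 0.909 and 0.916 in whole cells and 0.704 and 0.732 against 0.917 and 0.886 in the cytoplasm. Neither passed (quasi-binomial FDR = 0.254 and FDR = 0.762).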
